A study of Mus musculus with 10 samples.

Results

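The genotype effect, Cd47ΔT against Cd47f/f, was compared between spleen T cells and spleen type 2 conventional dendritic cells (cDC2s). The genes compared, called shared genes here, are those found in the control libraries of both. A level in a library need not come from the labelled cells. A gene entered the set at 5 TPM or more in both control T cell libraries and in all 3 control cDC2 libraries. TPM are transcript abundances per length that sum to the same total in each library. The rule kept 7395 of 45706 genes in the deposited table, of which 7178 are annotated as protein-coding. The genes were chosen by their control levels alone, which also enter each genotype effect and are given below as a description. Tmem101, Comtd1 and Dpagt1 lay just inside the limit, with a lowest control value of 5.0 TPM, and Rpp14, Eci1 and Nedd4l lay just outside it at 4.99 TPM.

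There were 10 RNA sequencing libraries from mouse spleen. The genotypes were Cd47f/f, the control, in which both Cd47 alleles are floxed, and Cd47ΔT, in which, by its name, Cd47 is deleted in T cells. T cells gave 2 libraries per genotype and cDC2s gave 3 per genotype, with no treatment or age in the labels. Which Cre line was used, which exons were deleted and how cells were isolated is not stated in the sources used here. Nothing in the labels ties replicates to separate mice, so the p-values reflect the spread among these libraries alone, and part or all of it may be technical.

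CD47 is a surface protein that engages SIRP alpha on phagocytes and dendritic cells and restrains uptake of the cell that carries it. SIRP alpha is a defining receptor of cDC2s, which present antigen to CD4 T cells on MHC class II. Cd47ΔT cDC2s, by the genotype's name, keep their own Cd47 and meet T cells that lack it. The question put to the data was which shared genes moved in one cell type, in both together, or in opposite directions.

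Library facts bear on what follows. T cell and cDC2 libraries were made with different kits, so cell type and kit cannot be told apart in levels, while each genotype effect lies within 1 kit. The share of TPM from small non-coding RNAs was 0.124% to 0.456% in T cell libraries, 16.1% to 21.3% in control cDC2 libraries and 21.8% to 25.2% in Cd47ΔT cDC2 libraries. The set held 91.0% to 93.2% of the TPM in T cells and 78.3% to 86.1% in cDC2s. In all 6 cDC2 libraries the Y-linked genes Kdm5d, Uty, Ddx3y and Eif2s3y were listed at 0 and Xist stood at 111 to 136 TPM. Ddx3y was present in all 4 T cell libraries, at 10.9 to 35.7 TPM, and Xist stood at 33.2 TPM in control library 1 and 6.21 TPM in Cd47ΔT library 1, against 0 and 0.01 TPM in the libraries numbered 2. Sex-linked genes thus differed between the cell types and among the T cell libraries, and the part of sex composition in the differences was not tested. Summed T cell markers stood at 8620 to 9526 TPM in T cells and 17.0 to 24.3 TPM in cDC2s, with Cd3g at 0 in every cDC2 library. Summed cDC2 markers stood at 1755 to 1877 TPM in control and 1539 to 1576 TPM in Cd47ΔT cDC2s. Each labelled cell type thus carried its own marker sum, although Clec10a was low in cDC2s, at 1.88 to 5.73 TPM. Sums of other lists were present in cDC2 libraries as well. In control and Cd47ΔT they stood at 1126 to 1347 and 992 to 1221 TPM for cDC1 markers, most of it Wdfy4. They were 222 to 375 and 170 to 254 TPM for red pulp macrophage and 672 to 760 and 508 to 608 TPM for monocyte markers. The part of other cells in the cDC2 values was not tested. Of 12 cDC2 markers, 2 fell in Cd47ΔT cDC2s, the integrin gene Itgam (74.9, 65.9 and 77.8 TPM against 22.1, 24.4 and 18.0) and the lectin gene Cd209a (87.0, 83.9 and 103 TPM against 34.7, 34.8 and 23.5).

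Most shared genes did not pass any test. An effect is the log2 fold change from Cd47f/f to Cd47ΔT, computed on log2(TPM + 1) and given with its SE. A gene is called changed where limma's Benjamini-Hochberg adjusted p is under 0.05. In T cells 249 of the 7395 genes rose and 47 fell, where 8.5% and 0.875% of all genes tested in T cells did. In cDC2s 10 rose and 27 fell, where 0.249% and 0.381% of all genes tested in cDC2s did. The median effect was 0.073 in T cells (quartiles -0.064 and 0.22) and -0.087 in cDC2s (quartiles -0.24 and 0.062). No call of any kind was made for 7006 genes (94.7%). Leaving out 1 library gave 109 and 110 higher genes in T cells without Cd47ΔT library 2 and 1, and 674 without control library 2, while 91 and 77 fell without control library 1 and 2 and 11 and 12 without Cd47ΔT library 1 and 2. It gave 0 to 2 higher and 0 to 3 lower genes in cDC2s without any 1 of the 6 cDC2 libraries. An adjusted p above the threshold does not show that a gene was unaffected. With an unadjusted p under 0.05, 1005 genes passed in T cells, 923 in cDC2s and 902 for the difference between the cell types.

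The difference between the effects, T cells minus cDC2s, was tested as the interaction of genotype and cell type, fitted on all 10 libraries together. It was positive for 211 genes (2.85%) and negative for 17 (0.23%), where 5.4% and 0.3% of all 10650 genes tested in both cell types were called. The set held a smaller share of positive calls than all genes tested. Those include genes low in the control libraries, which the set leaves out by its rule. The smaller share is therefore a description and not a result about shared genes. Its median difference was 0.16 (quartiles -0.029 and 0.38), against 0.19 over all genes tested in both. Of the 211 positive differences, 160 had the larger effect in T cells and 51 in cDC2s, and in 150 the effects had opposite signs. In 133 of the 211 the gene had risen in T cells and was not called in cDC2s, in 16 it had fallen in cDC2s and was not called in T cells, in 4 both held, and in 58 neither cell type alone passed. Of the 17 negative differences, 9 had the larger effect in T cells and 8 in cDC2s, and in 15 the signs were opposite.

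The balance of directions depended on scaling. In T cells 209 genes rose and 143 fell after quantile scaling, and 205 and 142 after median-of-ratios scaling, with the median effect at -0.068 and -0.077. Without a filter on low values 5 rose and 0 fell in T cells. For the difference, the calls moved as well. The share of positive among called differences was 92.5% on the deposited TPM, 84% after scaling to protein-coding genes, 68.6% after quantile scaling (118 positive and 54 negative) and 67% after median-of-ratios scaling (122 and 60). These scalings moved the median difference of all genes tested from 0.19 to 0.089, -0.056 and -0.034. Under them 152, 116 and 122 of the 211 positive calls were kept, and all 17 negative calls were kept under each. Leaving out 1 library gave 94 to 262 positive calls (94 without Cd47ΔT T cell library 2, 105 and 106 without control library 1 and Cd47ΔT library 1 of the T cells) and 7 to 21 negative calls (7 without either Cd47ΔT T cell library). With only T cell library 2 of each genotype, the pair with Xist near 0, 59 positive and 6 negative differences were called, all among the 211 and the 17.

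**Figure D1:**
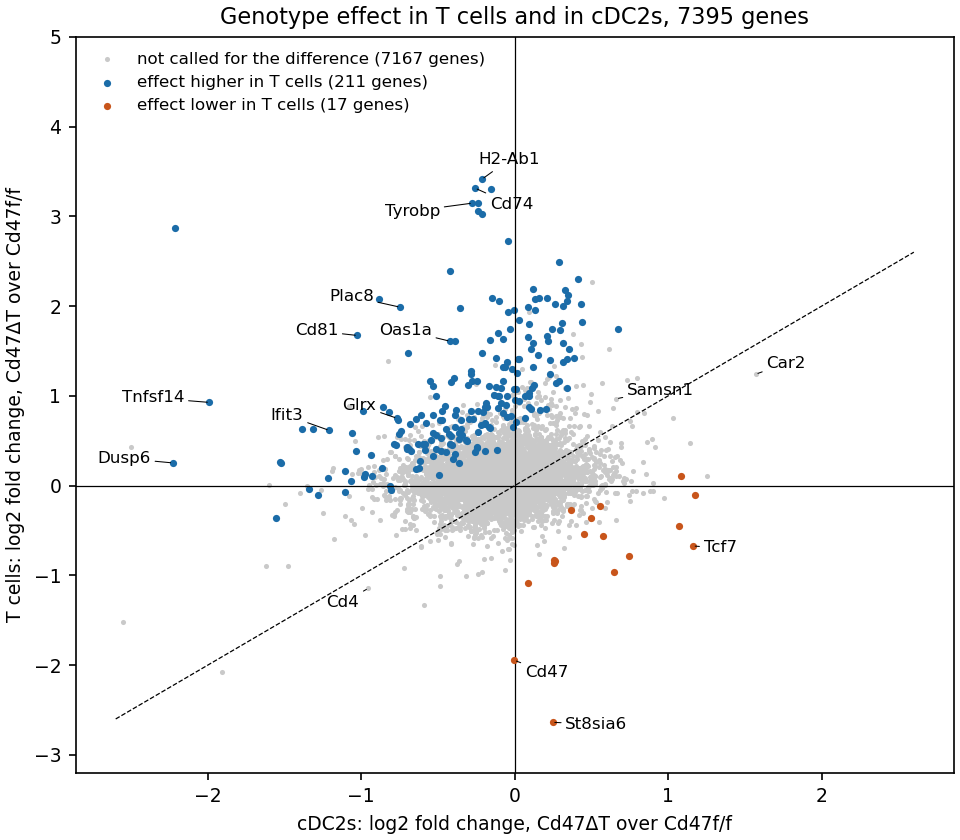
Each point is 1 of the 7395 genes, with its log2 fold change (Cd47ΔT against Cd47f/f, from log2(TPM + 1)) in cDC2s on the x axis and in T cells on the y axis; blue marks the 211 positive and orange the 17 negative differences, and the dashed line marks equal effects. The points spread around 0 in both directions with no common diagonal (Pearson r = 0.11 across genes), and most of the blue points lie above 0 in T cells and at or below 0 in cDC2s.

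Across the 7395 genes the T cell and cDC2 effects had a Pearson r of 0.11 and a Spearman rho of 0.13, given as a description since genes are not independent replicates and the kits differ. Non-overlap of all libraries of both genotypes, a looser measure than a call, held with T cells higher and cDC2s lower for 262 genes (3.54%) and the reverse for 31 (0.419%), where 4.5% and 0.61% of all genes tested in both did. It held with both higher for 161 genes (2.18%) and with both lower for 151 (2.04%), where 2.95% and 1.73% did. Within T cells alone 2336 genes lay higher and 792 lower without overlap, where 37% and 11.9% of all genes tested did, and within cDC2s alone 340 and 1117, where 6.38% and 13.5% did.

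Only 5 genes were called in both cell types in opposite directions, where 0.131% of all genes tested in both were. Plac8, Cd81, Glrx and Ifit3 rose in T cells and fell in cDC2s, and Tcf7 did the reverse. Plac8 encodes a small cysteine-rich protein of leukocytes. It stood at 124 and 128 TPM in control and 510 and 495 TPM in Cd47ΔT T cells, and at 242, 238 and 249 TPM in control and 165, 144 and 126 TPM in Cd47ΔT cDC2s. Control T cells were thus below control cDC2s and Cd47ΔT T cells were above every cDC2 library, in levels that come from different kits. Its effect was 1.99 ± 0.10 in T cells (adjusted p = 0.00111) and -0.75 ± 0.11 in cDC2s (adjusted p = 0.0381), a difference of 2.74 ± 0.17 (adjusted p = 2.94e-05).

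Cd81 encodes a tetraspanin, a membrane organiser that associates with surface receptors. It stood at 11.2 and 11.3 TPM in control and 38.2 and 37.9 TPM in Cd47ΔT T cells, and at 55.4, 62.9 and 50.7 TPM in control and 30.4, 25.6 and 25.4 TPM in Cd47ΔT cDC2s. Both cell types kept control and Cd47ΔT libraries apart. The effects were 1.67 ± 0.15 (adjusted p = 0.00458) and -1.03 ± 0.13 (adjusted p = 0.0262), and they differed by 2.70 ± 0.22 (adjusted p = 8.07e-05). Glrx encodes glutaredoxin, a thiol oxidoreductase that removes glutathione from proteins. It stood at 32.2 and 33.2 TPM in control and 60.0 and 51.8 TPM in Cd47ΔT T cells, and at 74.9, 83.9 and 86.3 TPM in control and 46.0, 47.0 and 49.4 TPM in Cd47ΔT cDC2s. Its effects of 0.75 ± 0.14 (adjusted p = 0.0278) and -0.77 ± 0.10 (adjusted p = 0.0277) were close to equal in size and differed by 1.52 ± 0.18 (adjusted p = 0.000657). Ifit3, an interferon-induced antiviral gene, is described with its list below.

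Tcf7 encodes the transcription factor TCF1, which maintains naive and memory T cells. Its T cell libraries stood at 975 and 1039 TPM in control and 616 and 645 TPM in Cd47ΔT, and its cDC2 libraries at 65.0, 68.0 and 58.5 TPM in control and 133, 125 and 179 TPM in Cd47ΔT. It fell by 0.67 ± 0.09 on the log2 scale in T cells (adjusted p = 0.0118) and rose by 1.16 ± 0.15 in cDC2s (adjusted p = 0.025), a difference of -1.84 ± 0.21 (adjusted p = 0.000377). The 14 T cell markers summed to 17.0 to 23.9 TPM in control and 20 to 24.3 TPM in Cd47ΔT cDC2s, of which Cd5 gave 11.7 to 21.8 TPM. Cd3g and Trbc2 were at 0 in all cDC2 libraries, while Lck and Trac stood at 5.04 and 4.03 TPM in Cd47ΔT library 2 and at no more than 0.41 and 0.29 TPM in the others. The part of T cell RNA in the cDC2 values of Tcf7 was not tested.

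**Figure D2:**
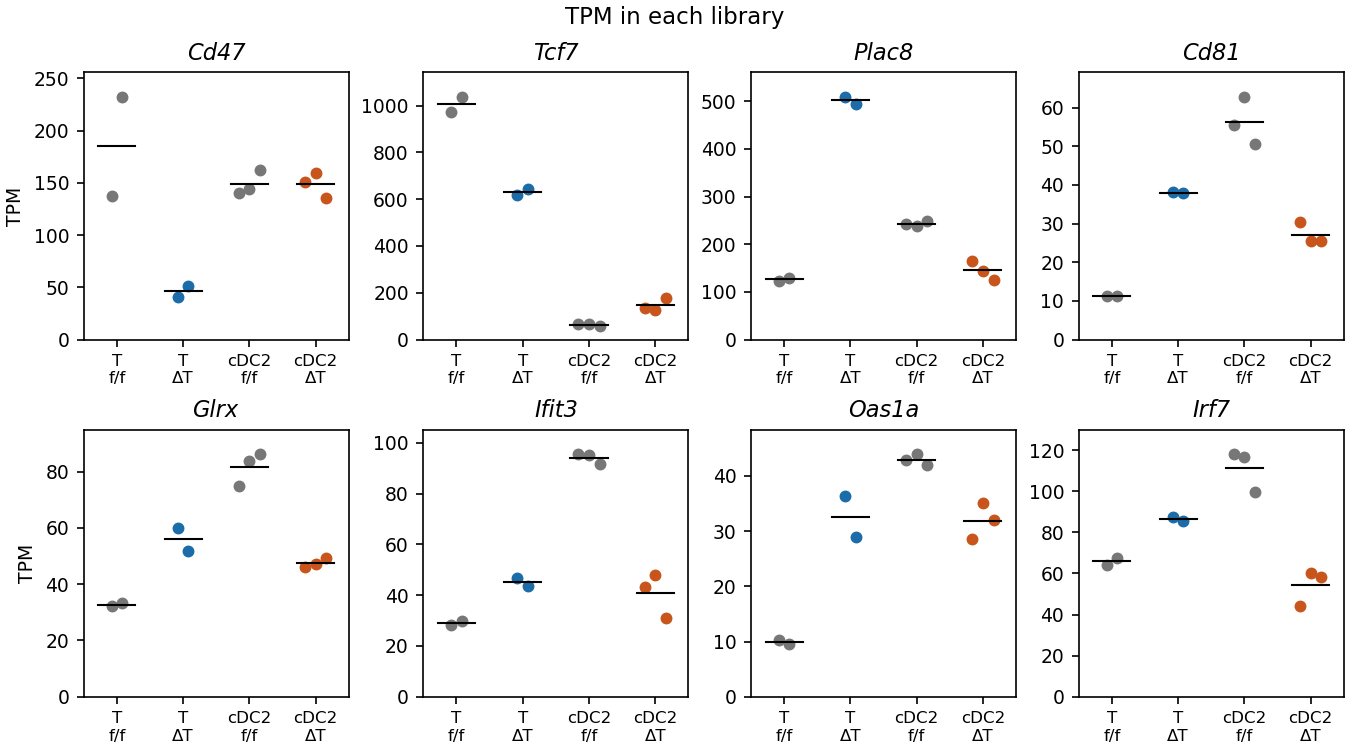
Each panel shows 1 gene with TPM on a linear axis from 0, 1 point per library and a line at the group mean, for control (f/f) and Cd47ΔT (ΔT) T cells and cDC2s. Cd47 is lower in T cells of Cd47ΔT alone; Tcf7 is lower in Cd47ΔT T cells and higher in Cd47ΔT cDC2s; and Plac8, Cd81, Glrx, Ifit3, Oas1a and Irf7 are higher in Cd47ΔT T cells and lower in Cd47ΔT cDC2s.

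The differences of these 5 genes passed when any single library was left out and under every other setting run. Their cDC2 calls did not, and without any 1 cDC2 library no gene was called in both cell types. Their adjusted p in cDC2s then ran from 0.0586 (Cd81) to 0.144 (Plac8), within 0.00322 (Tcf7) to 0.144 over all settings. Scaling mattered too. The cDC2 call of Plac8 was lost under all 3 other scalings (0.076 to 0.0792) and that of Cd81 under protein-coding scaling (0.0552). The T cell calls of Glrx (0.0591 and 0.0565) and Ifit3 (0.0796 and 0.0739) were lost after quantile and median-of-ratios scaling. The T cell calls of Glrx (adjusted p = 0.34 without Cd47ΔT library 1), Ifit3 (0.508 without the same library) and Tcf7 (0.0692 without it) were also lost without 1 T cell library, in ranges over all settings that reach 0.34, 0.508 and 0.076.

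Only 3 genes were called in both cell types in the same direction, where 0.0376% of all genes tested in both were. Samsn1, which encodes an adaptor of lymphocyte signalling, stood at 21.9 and 26.3 TPM in control and 48.8 and 47.1 TPM in Cd47ΔT T cells, and at 86.1, 91.7 and 92.9 TPM in control and 147, 133 and 151 TPM in Cd47ΔT cDC2s. It rose in both (0.97 ± 0.15, adjusted p = 0.0168, and 0.66 ± 0.09, adjusted p = 0.0294), and the difference of 0.31 ± 0.18 was not called (adjusted p = 0.49). Car2 encodes a carbonic anhydrase abundant in red cells. It stood at 5.62 and 6.48 TPM in control and 12.3 and 19.8 TPM in Cd47ΔT T cells, and at 7.05, 8.23 and 8.16 TPM in control and 20.6, 20.9 and 36.6 TPM in Cd47ΔT cDC2s. It rose by 1.24 ± 0.26 (adjusted p = 0.0372) and 1.57 ± 0.24 (adjusted p = 0.0411). Summed erythroid markers, of which Car2 is itself 1 of 11, stood at 29.8 to 43.6 TPM in control and 99.4 to 194 TPM in Cd47ΔT T cells. In cDC2s they stood at 26.1 to 111 TPM and 62.5 to 203 TPM, where the genotypes overlapped. The sums are thus not separate from Car2, and the part of erythroid RNA in its values was not tested.

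Cd4, the MHC class II coreceptor of helper T cells, which mouse splenic cDC2s also express, fell in both. Its T cell libraries stood at 170 and 190 TPM in control and 108 and 60.2 TPM in Cd47ΔT, and its cDC2 libraries at 150, 161 and 187 TPM in control and 90.8, 86.9 and 77.5 TPM in Cd47ΔT. No Cd47ΔT library reached a control library in either cell type. The effects were -1.15 ± 0.26 (adjusted p = 0.0481) and -0.95 ± 0.12 (adjusted p = 0.0203), and the difference of -0.19 ± 0.29 was not called (adjusted p = 0.855). In bulk samples, fewer cells of a type and less RNA per cell cannot be told apart. Fabp5, a fatty acid binding protein, had nearly the same effect in both, 0.81 ± 0.19 in T cells, where it was not called (adjusted p = 0.0528), and 0.84 ± 0.08 in cDC2s (adjusted p = 0.0147). Without 1 cDC2 library the cDC2 calls of Car2, Cd4 and Samsn1 were lost (adjusted p from 0.0586 to 0.145, within 0.0113 to 0.145 over all settings). Their T cell calls were lost without either Cd47ΔT library for Samsn1 (0.102 and 0.08) and without any of 3 T cell libraries for Car2 (0.0618 to 0.273) and Cd4 (0.0873 to 0.12, and up to 0.169 over all settings).

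Of the 17 genes with a negative difference, Cd47 itself was the check of the labels. It stood at 138 and 233 TPM in control and 40.4 and 51.7 TPM in Cd47ΔT T cells, and at 140, 144 and 162 TPM in control and 151, 159 and 135 TPM in Cd47ΔT cDC2s. Cd47 (ENSMUSG00000055447, chromosome 16, 49800533 to 49915010, plus strand, GRCm38) fell in T cells (-1.95 ± 0.26, adjusted p = 0.0112), the cDC2 groups overlapped, and the control levels of the cell types overlapped as well. The most negative difference was not Cd47 but St8sia6, a sialyltransferase that adds alpha-2,8-linked sialic acid. It stood at 13.1 and 21 TPM in control and 1.97 and 1.70 TPM in Cd47ΔT T cells, and at 55.1, 59.1 and 79.7 TPM in control and 70.4, 73.0 and 85.1 TPM in Cd47ΔT cDC2s. It fell by 2.64 ± 0.27 on the log2 scale in T cells (adjusted p = 0.00615), the cDC2 genotypes overlapped, and the difference was -2.88 ± 0.31 (adjusted p = 0.000288).

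Of the 17, 7 had fallen in T cells alone, 3 had risen in cDC2s alone, Tcf7 had done both, and 6 were called in neither cell type alone. Other genes also fell in T cells alone. Selenop, a secreted selenoprotein that carries selenium, stood at 259 and 241 TPM in control and 114 and 120 TPM in Cd47ΔT T cells, with 18.1 to 32.2 TPM in all cDC2 libraries (difference -1.18 ± 0.31, adjusted p = 0.0455). Actn1, an actin cross-linking alpha-actinin, stood at 187 and 230 TPM in control and 105 and 122 TPM in Cd47ΔT T cells, and it was not called in cDC2s, at 81.3 to 87.8 TPM in control and 97.2 to 107 TPM in Cd47ΔT cDC2s (difference -1.12 ± 0.18, adjusted p = 0.00349). Tent5c, a cytoplasmic poly(A) polymerase, stood at 43.9 and 54.9 TPM in control and 24.2 and 25 TPM in Cd47ΔT T cells, and at 8.55 to 11 TPM and 14.6 to 19.3 TPM in cDC2s (difference -1.61 ± 0.27, adjusted p = 0.00398). Tubb2a, a beta tubulin, fell in T cells as well (-0.84, adjusted p = 0.0408), with a difference of -1.10 ± 0.25. The chemokine receptor gene Ccr7, which guides T cells and dendritic cells to lymphoid tissue, also fell in T cells (-0.54 ± 0.10, adjusted p = 0.0257) and had a difference of -0.99 ± 0.25 (adjusted p = 0.0376). It lies outside the rule for named genes and was chosen after its values were seen. Whether its calls held under other settings is not given here.

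Chst10 and Bmt2 rose in cDC2s while T cells were not called. Chst10, a sulfotransferase that makes the HNK-1 carbohydrate, stood at 12.2, 9.37 and 11.4 TPM in control and 22.1, 27.2 and 29.0 TPM in Cd47ΔT cDC2s, and at 22.8 and 29.2 TPM against 23.9 and 24.1 TPM in T cells. It rose by 1.17 ± 0.17 in cDC2s (adjusted p = 0.0362), a difference of -1.28 ± 0.27 (adjusted p = 0.0148). Bmt2, a methyltransferase that acts as a SAM sensor of mTORC1, rose in cDC2s from 21.6, 17.3 and 14.7 TPM to 35.2, 38.2 and 41.2 TPM (1.07 ± 0.17, adjusted p = 0.0411), with T cells at 13.3 and 16.6 TPM against 10.7 and 10.5 TPM (difference -1.52 ± 0.27, adjusted p = 0.00572). Itgb3, Hist3h2a and Als2cl were called in neither cell type alone. Itgb3, the integrin beta 3 subunit, stood at 22.2 and 29.1 TPM against 14.4 and 14.2 TPM in T cells and 7.16 to 7.83 TPM against 12.5 to 14.0 TPM in cDC2s, and its difference was -1.53 ± 0.26 (adjusted p = 0.00412). Hist3h2a, a histone H2A gene, and Als2cl had differences of -1.08 ± 0.25 and -1.14 ± 0.26.

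Of the negative differences named here, those of Cd47, St8sia6, Tcf7, Tent5c, Itgb3, Bmt2 and Actn1 stayed called when any single library was left out. Those of Chst10, Als2cl, Tubb2a, Hist3h2a and Selenop did not, with adjusted p up to 0.0805 without Cd47ΔT T cell library 2 (Chst10), 0.135 without Cd47ΔT T cell library 1 (Als2cl), 0.126 without Cd47ΔT T cell library 2 (Tubb2a), 0.108 without Cd47ΔT T cell library 1 (Hist3h2a) and 0.194 without control T cell library 1 (Selenop, lost without any of 8 libraries); over all settings they reached 0.0972, 0.194, 0.254, 0.275 and 0.495.

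Among the type I interferon response genes, calls went up in T cells and down in cDC2s. Type I interferons signal through JAK kinases to a complex, with STAT2 and IRF9 among its parts, that binds interferon-stimulated response elements in target promoters, and both T cells and dendritic cells carry the receptor. Of 40 genes listed, 33 were in the set. In T cells 9 rose and none fell (median effect 0.39, against 0.073 over the set), and in cDC2s 5 fell and none rose (median -0.54, against -0.087). The difference was called positive for 13 and negative for none, with a median of 0.76 against 0.16 over the set. These 9, 5 and 13 genes are 27.3%, 15.2% and 39.4% of the 33. Of all genes tested, 8.5% rose in T cells, 0.381% fell in cDC2s and 5.4% had a positive difference. In the set itself, to which all list members counted here belong, these shares were 3.37%, 0.365% and 2.85%. The shares given beside the lists below are those of all genes tested unless the set is named. The difference was above 0 in all 33, and the signs themselves were opposite, up in T cells and down in cDC2s, in 23. All libraries of both genotypes were apart for 20 of the 33 upward in T cells and for 23 downward in cDC2s, where 37% and 13.5% of all genes tested were.

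A stretch of promoter is shown for 5 of these genes because each holds the core of an interferon-stimulated response element, to place beside the expression values. The motif searched was GAAANNGAAA on both strands, with overlapping copies counted, in the 250 bases before the RefSeq start site (GRCm38.p6). Capitals mark the motif. Bst2, Ifi203, Phf11b, Slfn5, Slfn8, Stat2 and Trim30a also hold the motif, without a called difference, and are not shown. Ifit3 (chr19:34583353-34583436, plus strand), Oas1a (chr5:120907526-120907565, minus strand) and Oas3 (chr5:120777705-120777754, minus strand) are the members with both a motif and a called difference, and Isg15 (chr4:156200855-156200916, minus strand) and Ifit1 (chr19:34640765-34640833, plus strand) hold it without a call.
Ifit3: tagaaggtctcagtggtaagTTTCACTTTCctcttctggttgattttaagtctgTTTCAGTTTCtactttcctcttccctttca
Oas1a: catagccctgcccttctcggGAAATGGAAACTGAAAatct
Oas3: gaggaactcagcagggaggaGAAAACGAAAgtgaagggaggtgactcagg
Isg15: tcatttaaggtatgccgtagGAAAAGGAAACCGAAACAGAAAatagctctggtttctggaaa
Ifit1: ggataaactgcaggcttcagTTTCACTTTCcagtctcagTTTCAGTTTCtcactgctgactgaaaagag

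In Ifit3 and Ifit1 the motif reads on the opposite strand, as TTTCNNTTTC. The motif stood in 936 of 27025 promoter windows (3.46%) and in 213 of the 5893 windows of genes in the set (3.61%). Of the 33 interferon members, 25 had a window and 12 of these held the motif (48%). Of the 13 with a called difference, 8 had a window and 3 of these held it (37.5%). Among those 25, the median effects of the 12 with the motif were 0.43 in T cells and -0.53 in cDC2s, and those of the 13 without it were 0.21 and -0.54. The 8 members with no window had medians of 0.57 and -0.55, so the opposite medians were seen with and without the motif. Among genes with a called difference, the motif stood in 16 of 160 windows of the positive and 2 of 13 windows of the negative kind (10% and 15.4%). A match is a description of the letters and not a bound site.

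Oas1a and Oas3 encode oligoadenylate synthetases, which activate RNase L on double-stranded RNA. Oas1a stood at 10.4 and 9.53 TPM in control and 36.3 and 28.9 TPM in Cd47ΔT T cells, and at 42.9, 44.0 and 42.0 TPM in control and 28.6, 35.0 and 32.1 TPM in Cd47ΔT cDC2s. Control and Cd47ΔT libraries lay apart in T cells and in cDC2s. It rose in T cells (1.61 ± 0.19, adjusted p = 0.00784), was not called in cDC2s (-0.42 ± 0.12, adjusted p = 0.187), and had a difference of 2.03 ± 0.22 (adjusted p = 0.000327). The related Oasl2 stood at 10.7 and 14.3 TPM against 21.4 and 18.3 TPM in T cells, and at 76.8, 70.6 and 55.2 TPM against 20.3, 30.3 and 25.3 TPM in cDC2s. Here it was the cDC2s that were called (-1.39 ± 0.18, adjusted p = 0.0262), with T cells at 0.63 ± 0.21 (adjusted p = 0.129) and a difference of 2.02 ± 0.30 (adjusted p = 0.00217).

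Ifit3 was the list's member called on both sides. It stood at 28.4 and 29.8 TPM in control and 46.7 and 43.5 TPM in Cd47ΔT T cells, and at 95.7, 95.2 and 91.7 TPM in control and 43.1, 48.1 and 31.2 TPM in Cd47ΔT cDC2s. Here too each cell type had its control and Cd47ΔT libraries apart. The effects were 0.62 ± 0.14 (adjusted p = 0.045) and -1.21 ± 0.16 (adjusted p = 0.0266), and they differed by 1.82 ± 0.24 (adjusted p = 0.00113). Irf7, the transcription factor that amplifies type I interferon production, stood at 64.3 and 67.6 TPM against 87.6 and 85.7 TPM in T cells and at 118, 116 and 99.6 TPM against 44.1, 60.4 and 58.1 TPM in cDC2s. It fell in cDC2s (-1.03, adjusted p = 0.0293), and its difference was 1.42 (adjusted p = 0.00252).

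Of the signalling genes, Stat2 and Irf9 were not called in either cell type or for the difference (0.42 and 0.30, adjusted p = 0.463 and 0.544). Zbp1, a nucleic acid sensor that can start necroptosis through RIPK3, belongs to this list and to the list of necroptosis genes. It stood at 109 and 113 TPM against 145 and 136 TPM in T cells and 73.8, 80.5 and 60.8 TPM against 30.8, 52.9 and 30.3 TPM in cDC2s, called in neither alone and with a difference of 1.28 ± 0.31 (adjusted p = 0.0309).

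**Figure D3:**
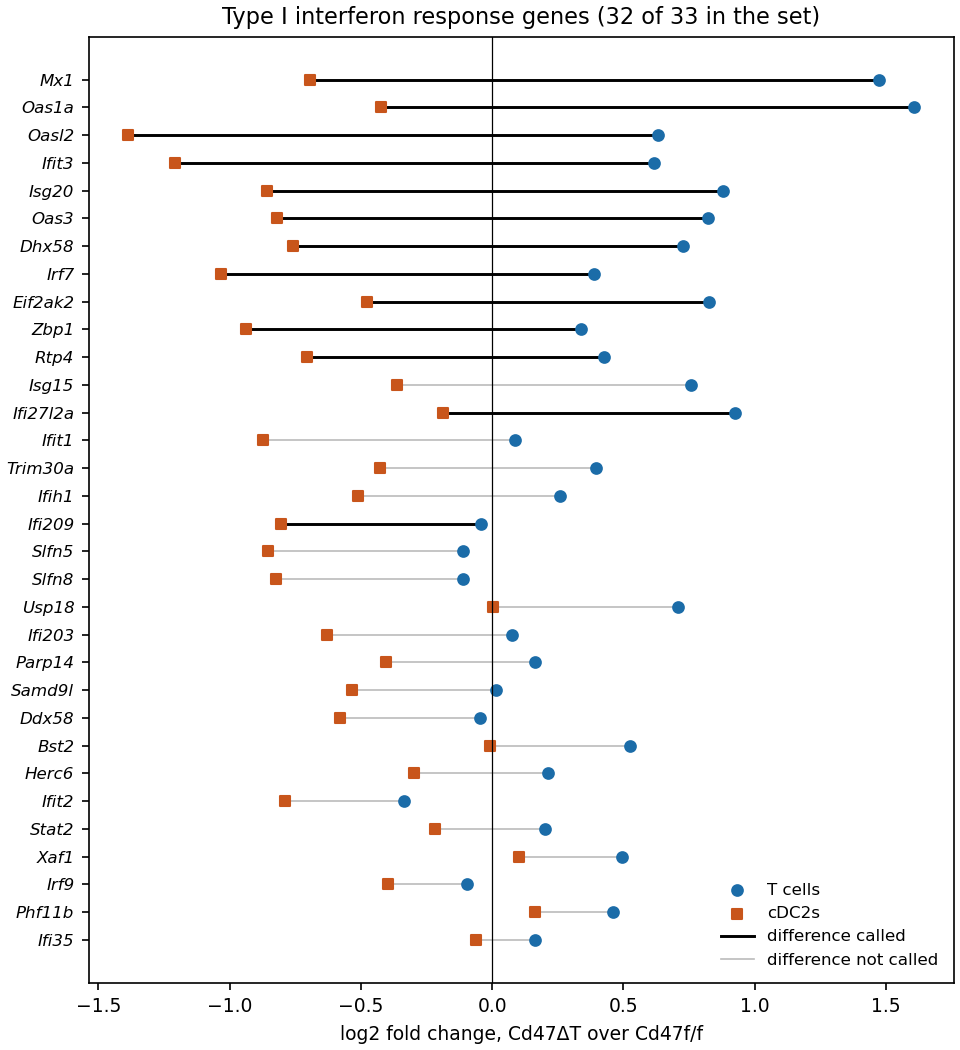
Type I interferon response genes of the set, 32 of 33, with the log2 fold change (Cd47ΔT against Cd47f/f, from log2(TPM + 1)) in T cells as circles and in cDC2s as squares, and a black line where the difference was called (13 genes). In all 32 the circle lies to the right of the square, and in 23 the 2 symbols lie on opposite sides of 0.

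The interferon list's median difference stayed above that of the set under other scalings, at 0.53 after quantile and median-of-ratios scaling and 0.66 after protein-coding scaling, with 8, 8 and 9 of its members called. Without 1 library, 7 (Cd47ΔT T cell library 1) to 16 (control T cell library 2) members were called, and with T cell library 2 of each genotype only 4 were. Zbp1 lost its call without any of 8 libraries (adjusted p from 0.0608 to 0.143, within 0.00254 to 0.382 over all settings), while Ifit3, Oas1a and Oasl2 stayed called when any 1 library was left out.

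Of 27 interferon gamma response genes listed, 21 were in the set. In T cells 1 rose, the guanylate-binding protein Gbp3 (0.90 ± 0.20, adjusted p = 0.0408), and in cDC2s 2 fell, Gbp4 and Gbp9. That is 4.76% and 9.52% of the 21, where 8.5% and 0.381% of all genes tested and 3.37% and 0.365% of the set did. The list's medians were 0.092 in T cells, -0.30 in cDC2s and 0.31 for the difference. The difference was called for Gbp4 alone (4.76%). A positive call was made for 5.4% of all genes tested in both and 2.85% of the set. Gbp4 stood at 47.3, 46.8 and 41.6 TPM in control and 22, 23.1 and 16.8 TPM in Cd47ΔT cDC2s, and at 62.1 and 90.6 TPM against 81.8 and 86.6 TPM in T cells, where the genotypes overlapped. Its difference of 1.27 ± 0.26 (adjusted p = 0.0137) was lost without control T cell library 1 (0.0689) or either Cd47ΔT T cell library (0.0516 and 0.0805), within 0.00769 to 0.177 over all settings. Among MHC class I genes, the nonclassical H2-Q6 was the 1 of 23 with a called difference (0.75 ± 0.17, adjusted p = 0.0239). It was lost without any of 6 libraries (up to 0.135, and up to 0.241 over all settings). H2-D1 and B2m, at 1804 TPM or more in every T cell library, had effects between -0.23 and 0.14.

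After the immunoglobulin gene Igkc, described below, the largest positive differences by size belonged to genes of antigen presentation and of myeloid cells. Of 8 MHC class II presentation genes in the set, 4 rose in T cells (50%, where 8.5% of all genes tested did) and none was called in cDC2s. A positive difference was called for 6 (75%, where 5.4% of all genes tested in both had one). H2-Ab1, a class II beta chain, stood at 6.03 and 7.48 TPM in control and 58.4 and 113 TPM in Cd47ΔT T cells, and at 9437, 8843 and 11544 TPM in control and 8668, 8398 and 8507 TPM in Cd47ΔT cDC2s. Its difference was 3.63 ± 0.31 (adjusted p = 8.2e-05). Its mean gain in T cells was 0.795% of the level in control cDC2s. The gain was 1.62% for the invariant chain Cd74, 1.26% for H2-Aa and 1.14% for H2-Eb1. Here and below, levels of the cell types come from different kits, so comparing them is a description and no measure of cDC2 RNA. Tyrobp and Fcer1g, ITAM adaptors of myeloid and NK cell receptors, had differences of 3.42 ± 0.26 and 3.24 ± 0.36, with gains in T cells of 27.8% and 10.4% of the control cDC2 level.

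Lyz2, the lysozyme of macrophages and granulocytes, stood at 19.4 and 46.9 TPM in control and 194 and 350 TPM in Cd47ΔT T cells, which thus reached the cDC2 range of 139 to 246 TPM (difference 3.30 ± 0.48, adjusted p = 0.00209). Apoe, the lipid carrier of macrophages, stood at 13 and 17.4 TPM against 83.1 and 132 TPM in T cells and at 230 to 280 TPM in all cDC2 libraries (difference 2.77 ± 0.27, adjusted p = 0.000132). Hmox1, the heme oxygenase of red pulp macrophages, stood at 5.57 and 5.89 TPM against 29.2 and 40.1 TPM in T cells and at 21.6 to 72.9 TPM in all cDC2 libraries. Its difference of 2.81 ± 0.53 (adjusted p = 0.0082) was lost without control T cell library 1 (0.0641, within 0.00333 to 0.119 over all settings). The progranulin gene Grn (1.71 ± 0.21, adjusted p = 0.000652) and the cathepsin gene Ctsb (1.11 ± 0.21, adjusted p = 0.00723) were among the 7 of 29 lysosomal genes with a positive difference. That is 24.1%, where 5.4% of all genes tested in both had one, and the list's median was 0.37. Leaving out 1 library left 1 (Cd47ΔT T cell library 2), 2 (control T cell library 1) or 4 to 6 of the lysosomal calls, and that of Ctsb was among those lost (adjusted p = 0.0534 without Cd47ΔT T cell library 2, within 0.00426 to 0.0886 over all settings).

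Markers of other cell types moved with these genes in the T cell libraries. Of these genes, Tyrobp is itself in the NK cell list, Lyz2 in the monocyte list and Hmox1 in the red pulp macrophage list. Those sums are therefore not separate from them. From control to Cd47ΔT, summed TPM went from 16.1 to 17.8 up to 60.0 to 144 for B cells, from 27.0 to 31.5 up to 198 to 314 for red pulp macrophages, and from 2.31 to 5.76 up to 28.6 to 93.1 for neutrophils. For NK cells they went from 78.9 to 119 up to 334 to 574, for plasma cells from 96.6 to 113 up to 410 to 448, and for monocytes from 764 to 957 up to 2507 to 2726. Most of the monocyte sum was Ly6c2 (595 and 738 TPM, then 1707 and 1738 TPM) and Plac8, the gene described above. Of the tested markers, 6 of 7 B cell, 11 of 11 red pulp macrophage, 7 of 9 monocyte and 3 of 5 neutrophil markers rose. So did 6 of 8 NK cell, 6 of 7 plasma cell and 7 of 9 cDC2 markers. The counts were 5 of 7 for cDC1, 4 of 8 for erythroid and 3 of 8 for plasmacytoid dendritic cell markers. Of all genes tested in T cells 8.5% rose. The plasmacytoid markers Ccr9 (36.2 and 41.5 TPM, then 26.6 and 30.1 TPM) and Pacsin1 (33.5 and 40.2 TPM, then 29.4 and 31.3 TPM) stood lower in Cd47ΔT. The 1 platelet marker tested did not rise. The cDC2 marker sum in T cells was 143 to 154 TPM in control and 157 to 187 TPM in Cd47ΔT, most of it Dtx1 (132 and 138 TPM, then 103 and 102 TPM). The other cDC2 markers were low and stood higher in both Cd47ΔT libraries, with Sirpa going from 1.91 and 2.78 to 15.6 and 28.3 TPM, Itgax from 0.89 and 2.08 to 5.48 and 9.92 TPM and Cd209a from 0.47 and 1.09 to 6.12 and 9.52 TPM. Zbtb46 reached at most 1.12 TPM and Clec4a4 at most 0.28 TPM. The part of such cells or RNA in the differences was not tested.

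The positive differences also held more genes with cDC2 control levels far above those of T cells, given as a description because control levels chose the set. Control cDC2s were at least 8-fold above control T cells for 41 of the 211 positive differences (19.4%) and for 94 of all 7395 genes (1.27%). Igkc, the immunoglobulin kappa constant gene, had a difference of 5.08 ± 1.04 (adjusted p = 0.0133) with the opposite control order. It was at 587 and 638 TPM in control and 4271 and 4690 TPM in Cd47ΔT T cells, and at 47.2, 53.9 and 50.2 TPM against 11.7, 37.9 and 1.75 TPM in cDC2s. Its effect was 2.87 ± 0.097 in T cells (adjusted p = 0.00078). In cDC2s, where the Cd47ΔT libraries were far apart, it was -2.21 ± 0.81 and not called (adjusted p = 0.286). Igkc lies outside the rule for named genes and was chosen after its values were seen. Whether its call held under other settings is not given here.

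**Figure D4:**
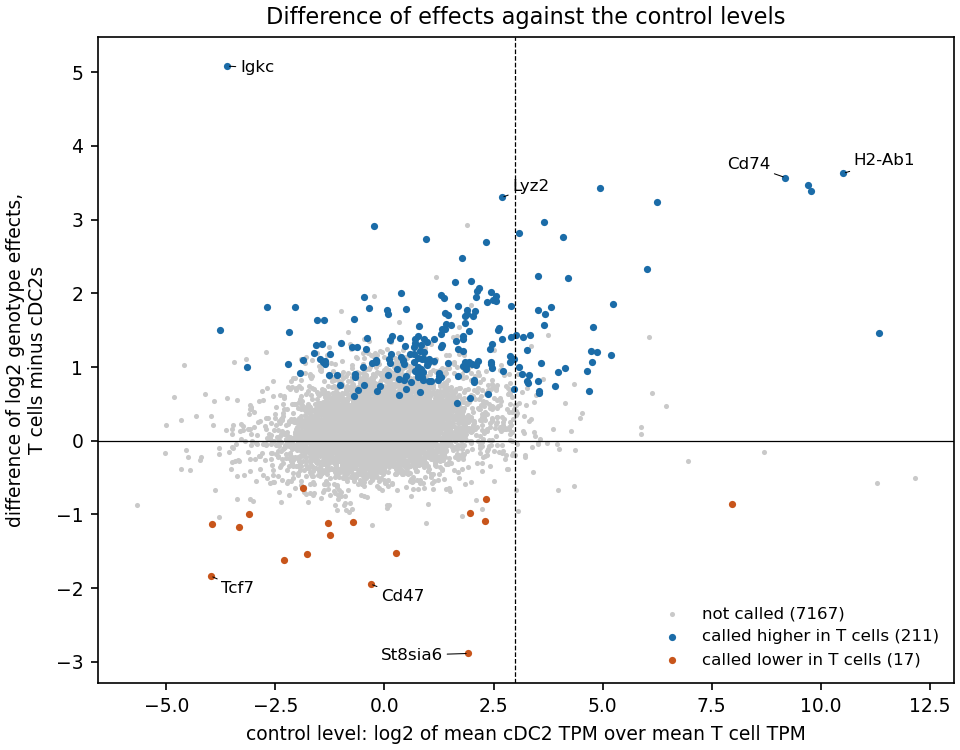
The difference of log2 genotype effects (T cells minus cDC2s) of each of the 7395 genes against its control level, as log2 of mean control cDC2 TPM over mean control T cell TPM, with the dashed line at an 8-fold higher level in cDC2s and called differences in blue (211 positive) and orange (17 negative). To the right of the line lie 41 positive differences, among them H2-Ab1 and Cd74, while Igkc, at 5.08, lies on the side where T cells have the higher control level.

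Cell division genes rose in T cells without a call in cDC2s. All 16 mitosis genes of the set (30 listed) rose in T cells (median 1.97), none was called in cDC2s (median 0.15), and 14 had a positive difference (87.5%). Of all genes tested, 8.5% rose in T cells and 5.4% had a positive difference. Top2a, the topoisomerase that untangles replicated DNA, stood at 14.8 and 27.3 TPM in control and 102 and 88.7 TPM in Cd47ΔT T cells, and at 91.1, 97.4 and 96.3 TPM against 99.4, 111 and 99.8 TPM in cDC2s. The genotypes were apart in both cell types, in cDC2s without a call (0.12, adjusted p = 0.641). The difference was 2.07 ± 0.28 (adjusted p = 0.0014). Ccna2, cyclin A2, stood at 7.56 and 9.40 TPM against 40.9 and 32.6 TPM in T cells and at 43.5 to 57.9 TPM in all cDC2 libraries, a difference of 1.90 ± 0.25 (adjusted p = 0.00119). Of 28 DNA replication genes in the set, 18 rose in T cells (64.3%, beside the same 8.5%) and none was called in cDC2s. The difference was positive for 6 of the 28 (21.4%, beside the same 5.4%), and the list's median was 0.61. Among the 6 were thymidine kinase Tk1 (1.71 ± 0.24), Stmn1, which destabilises microtubules (1.28 ± 0.18), and Uhrf1, which maintains DNA methylation (1.50 ± 0.22). Leaving out 1 library gave 10 to 14 mitosis and 5 to 9 replication genes, and with T cell library 2 of each genotype only 6 and 3.

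Of 16 galectin, S100 and annexin genes, which include markers of activated lymphocytes and of myeloid cells, 9 rose in T cells (56.2%). In cDC2s 1 fell (6.25%), and the difference was positive for 9 (56.2%). Of all genes tested, 8.5% rose in T cells, 0.381% fell in cDC2s and 5.4% had a positive difference. S100a4 stood at 115 and 143 TPM in control and 611 and 495 TPM in Cd47ΔT T cells, and at 603 to 696 TPM against 738 to 776 TPM in cDC2s (difference 1.89 ± 0.18, adjusted p = 0.000132). Anxa2, an annexin that binds membranes in the presence of calcium, stood at 33.6 and 42.7 TPM against 149 and 147 TPM in T cells and at 80.8 to 98.3 TPM in all cDC2 libraries (difference 1.98 ± 0.19, adjusted p = 0.000159). Cd44, the hyaluronan receptor of activated T cells, stood at 20.4 and 29.9 TPM against 57.3 and 58.5 TPM in T cells and at 88.2 to 95.4 TPM against 61.4 to 73.3 TPM in cDC2s, where it was not called (difference 1.60 ± 0.23, adjusted p = 0.00185). Plek, an actin-linked substrate of protein kinase C, was the 1 of 35 actin genes with a called difference (1.44 ± 0.25, adjusted p = 0.00565).

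Some positive differences came mainly from cDC2s. Dusp6 encodes a phosphatase that inactivates ERK and is itself induced by ERK signalling. It stood at 52.1, 42.9 and 66.5 TPM in control and 9.76, 12.4 and 9.55 TPM in Cd47ΔT cDC2s, and at 14.8 and 16.5 TPM against 18.7 and 19.0 TPM in T cells. It fell by 2.23 ± 0.19 on the log2 scale in cDC2s (adjusted p = 0.012) and was not called in T cells (0.25 ± 0.17, adjusted p = 0.493), with a difference of 2.48 ± 0.29 (adjusted p = 0.000434). Of 28 immediate early genes in the set, Dusp6 was the 1 that fell in cDC2s (3.57%, where 0.381% of all genes tested did), although the list's median there was -0.41. Only Dusp6 and Rgs1 of this list had a called difference (7.14%, where 5.4% of all genes tested in both had a positive one). Rgs1, a brake on chemokine receptor signalling, rose in T cells (1.43 ± 0.19, adjusted p = 0.0114) from 15.7 and 11.6 TPM to 39.7 and 36.3 TPM, and its cDC2 groups overlapped.

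Tnfsf14, which encodes the TNF family ligand LIGHT, stood at 8.06 and 10.8 TPM in control and 19.3 and 18.1 TPM in Cd47ΔT T cells, and at 10.9, 5.42 and 7.56 TPM in control and 0.51, 1.89 and 1.39 TPM in Cd47ΔT cDC2s. It rose in T cells (0.93 ± 0.20, adjusted p = 0.042), its cDC2 groups did not overlap but were not called (-1.99 ± 0.35, adjusted p = 0.0619), and the difference was 2.92 ± 0.46 (adjusted p = 0.00315). Relb, an NF-kB subunit needed for dendritic cell maturation, rose in cDC2s from 267, 287 and 261 TPM to 400, 395 and 450 TPM (0.61 ± 0.09, adjusted p = 0.0364), and its difference was not called (-0.43 ± 0.16, adjusted p = 0.181). Nfkbiz, an atypical NF-kB inhibitor, was the 1 of 23 NF-kB genes with a called difference (0.99 ± 0.20, adjusted p = 0.0118), with cDC2s at 78.1, 74.3 and 89.0 TPM against 51.6, 51.9 and 56.1 TPM and T cells at 13.7 and 15.3 TPM against 19.4 TPM in both Cd47ΔT libraries. The call of Nfkbiz was lost without either Cd47ΔT T cell library (0.06 and 0.0682) and that of Rgs1 without control T cell library 2 or Cd47ΔT T cell library 1 (0.063 and 0.0543), within 0.00274 to 0.134 over all settings of both.

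The study's title concerns T cell necroptosis driven by dendritic cells. Of 20 necroptosis and TNF receptor death genes, Zbp1 and Tnfrsf1b had a called difference, both positive (10%, where 5.4% of all genes tested in both did), and the list's median was 0.38. Tnfrsf1b, TNF receptor 2, stood at 30.3 and 36.9 TPM in control and 97.0 and 85.2 TPM in Cd47ΔT T cells, and at 62.3, 63.5 and 73.5 TPM against 89.6, 87.8 and 83.8 TPM in cDC2s. The direction was upward in both cell types, called in T cells alone (1.42 ± 0.15, adjusted p = 0.00714), and the difference was 1.03 ± 0.20 (adjusted p = 0.00841). That call was lost without Cd47ΔT T cell library 1 (0.0633, within 0.00679 to 0.148 over all settings). The kinases Ripk1 and Ripk3 and the brakes Casp8 and Cflar were not called in either cell type or for the difference. Ripk3, which executes necroptosis, stood at 28.4 and 31.2 TPM against 41.0 and 42.8 TPM in T cells (0.48 ± 0.14, adjusted p = 0.0976) and at 8.41 to 9.24 TPM against 8.72 to 10.2 TPM in cDC2s. Casp8, which cleaves both RIP kinases, stood at 103 and 112 TPM against 110 TPM in both Cd47ΔT T cell libraries and at 54.9 to 68.1 TPM against 43.1 to 54.1 TPM in cDC2s.

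Of 17 BCL2 family and caspase genes, 4 rose in T cells (23.5%, where 8.5% of all genes tested did) and none was called in cDC2s. A positive difference was called for 3 (17.6%, beside the same 5.4%). Bcl2a1b and Bcl2a1d, prosurvival A1 genes with near-identical copies between which reads can be split, had differences of 0.75 ± 0.17 and 1.17 ± 0.28 (adjusted p = 0.0219 and 0.0324). Bid, which links death receptors to mitochondria, had a difference of 1.09 ± 0.29 (adjusted p = 0.0466) and was called in neither cell type alone. All 3 calls were lost under each of the 3 other scalings (adjusted p from 0.052 to 0.26) and without Cd47ΔT T cell library 1 (0.151 for Bcl2a1b, 0.152 for Bcl2a1d and 0.174 for Bid), with values up to 0.496 for Bid over all settings. Mcl1 and Bax, a prosurvival and a pore-forming member, were not called in any comparison, at 204 to 272 TPM and 91.0 to 123 TPM in T cells and 409 to 478 TPM and 29.8 to 49.1 TPM in cDC2s.

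Of 76 nuclear oxidative phosphorylation genes, 8 rose in T cells (10.5%, where 8.5% of all genes tested and 3.37% of the set did). None was called in cDC2s. Cox5b and Atpif1 (2.63%, beside 5.4% of all genes tested and 2.85% of the set) had a called difference (0.67 ± 0.17 and 0.78 ± 0.20, adjusted p = 0.0418 and 0.0463). No other scaling and no fit without 1 T cell library kept these 2 calls (adjusted p up to 0.322 over all settings). Of 11 mitochondrially encoded genes, 10 fell in T cells (90.9%, where 0.875% of all genes tested did), with a median of -0.58. None was called in cDC2s (median -0.29), and none differed between the cell types by the test (median difference -0.20). Of 23 unfolded protein response genes only Xbp1, the factor of secretory cells, had a called difference (0.90 ± 0.24, adjusted p = 0.0476), lost without any of 8 libraries (up to 0.217, and up to 0.362 over all settings), beside the plasma cell marker values above. Xbp1 is itself among those plasma cell markers. None of the 79 ribosomal protein, 31 proteasome, 24 heat shock, 24 translation, 20 cholesterol and fatty acid synthesis and 15 glycolysis genes was called for the difference, with medians from 0.034 to 0.37. The medians of the ribosomal, proteasome, heat shock, translation, cholesterol, MHC class I and NF-kB lists changed sign under median-of-ratios scaling, so no direction is given for them.

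**Figure D5:**
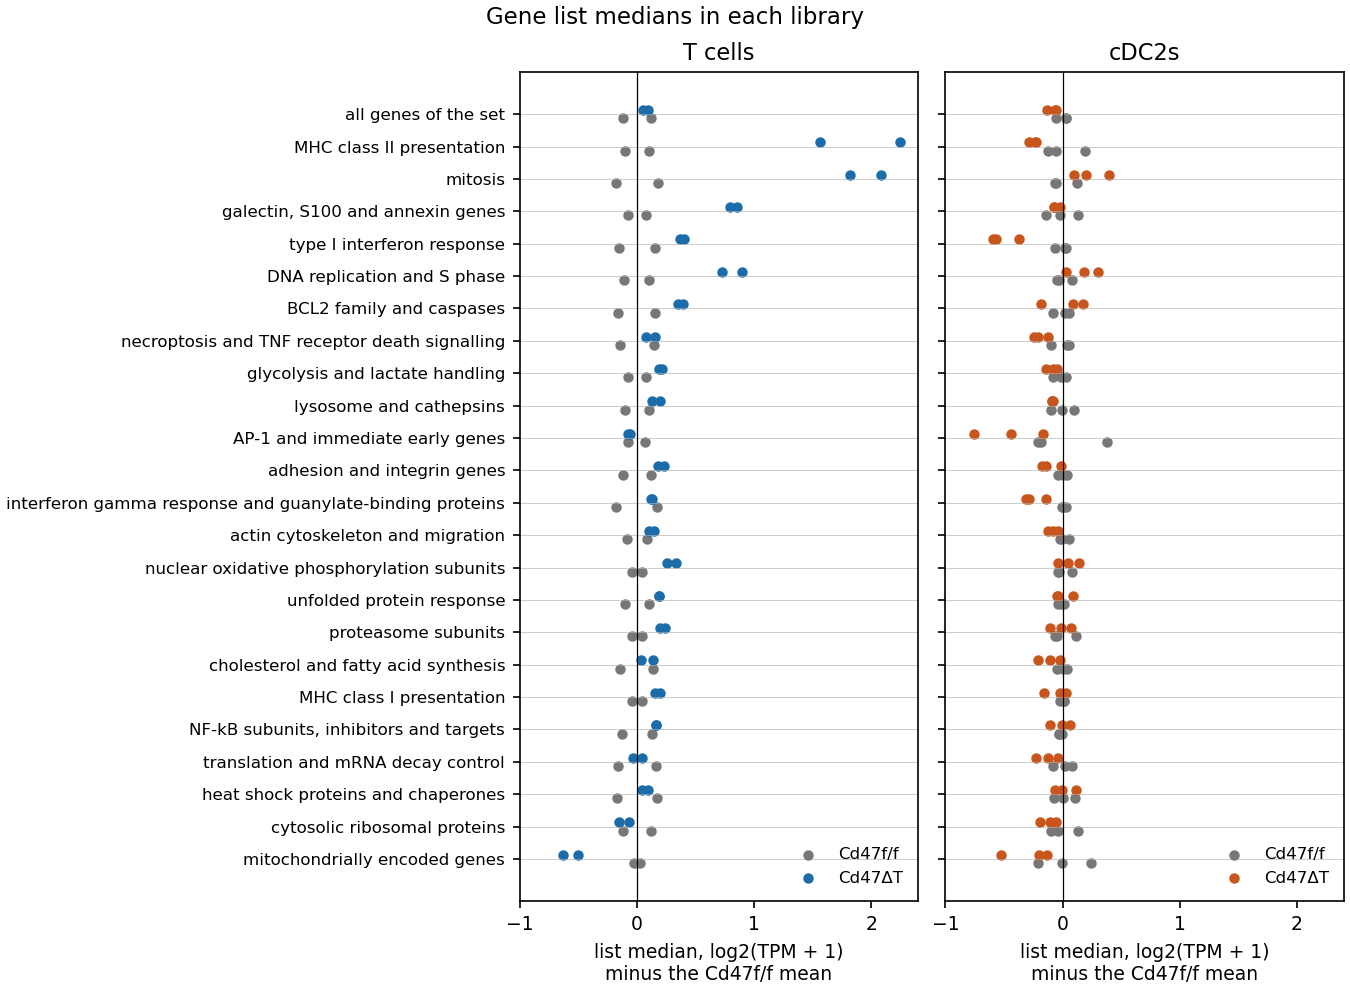
For each gene list and for all genes of the set, the median over its genes of log2(TPM + 1) minus the Cd47f/f mean, 1 point per library, in T cells (left) and cDC2s (right), with control libraries in grey. Mitosis medians stand at 1.82 to 2.08 in Cd47ΔT T cells and at 0.10 to 0.39 in Cd47ΔT cDC2s, and the type I interferon medians at 0.37 to 0.40 in Cd47ΔT T cells and at -0.60 to -0.37 in Cd47ΔT cDC2s.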

How the data were processed

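RNA of spleen T cells (4 libraries) and cDC2s (6 libraries) was sequenced. The labels gave each library its cell type and genotype. Per the labels' protocols, T cells went through RNeasy mini extraction and the TruSeq stranded mRNA kit, whereas cDC2s went through RNeasy micro extraction and the SMART-seq stranded kit. The deposited table holds TPM made by the authors for 45706 Ensembl genes. The GRCm38 build and the tools STAR, RSEM and DESeq2 are named without versions, per the submitters' processing notes. No source used here gives the annotation release. Sequencing depth cannot be read from TPM and is unknown, so no counting interval is given. Of the identifiers, 45143 (98.8%) matched GENCODE M21, which gave symbols and positions, and 563 did not. Whether reads were counted by strand is not given, so overlapping antisense genes and near-identical copies are uncertain.

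A filter kept genes that reached 1 TPM in 2 or more T cell libraries (12453 genes) and in 3 or more cDC2 libraries (12058 genes). Each cell type was fitted on log2(TPM + 1) by limma 3.58.1 in R 4.3.3, using lmFit and eBayes with a variance trend and genotype as its term. The difference of effects was an interaction, fitted on 10 libraries for the 10650 genes kept by both filters. Benjamini-Hochberg adjustment ran over all genes tested, with a threshold of 0.05, and only the 7395 genes at 5 TPM or more in all control libraries are reported. The log2(TPM + 1) scale understates changes of low genes. Fits were checked on simulated data. Named genes were Cd47, up to 12 with the largest positive and negative called differences without overlap in the cell type of the larger effect, and up to 8 called in both cell types in each direction, filled to 4 by genes at unadjusted p under 0.05. Up to 3 members of each list with the smallest p and a fixed set of death and reference genes were added. The values of 1 gene of that set and of the interferon list are not reported here, and list counts and medians include it. Unnamed gene models, antigen receptor and immunoglobulin genes, pseudogenes, mitochondrial genes and small RNAs were left out of the largest changes. In paragraphs on a list, other members may be named for its counts. The genes, lists and tests were chosen with earlier results of these data known. Promoter windows came from RefSeq (GRCm38.p6). Alternatives were pseudocounts of 0.1 and 5, no filter or a filter of 5 TPM, 3 scalings, other variance models, the replicate number as a block, other limits of the set and leaving out each library. A fit with T cell library 2 of each genotype only was added after the data were seen. Where an omission left 1 T cell library of a genotype, its spread was taken from the other groups. Tables were made in Python 3.11.15 with numpy 2.4.6 and pandas 2.3.3, and figures with matplotlib 3.10.9.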

Additional observations from a re-analysis of the deposited data

Results flagged for a closer look

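For 55 named genes the genotype effect differed between T cells and cDC2s by limma's interaction test (Benjamini-Hochberg adjusted p under 0.05). Values are T cell minus cDC2 effects on the log2(TPM + 1) scale, and no explanation is weighed. The antigen presentation and myeloid genes gave H2-Ab1 3.63, Cd74 3.57, H2-Aa 3.47, Tyrobp 3.42, H2-Eb1 3.39, Lyz2 3.30, Fcer1g 3.24, Hmox1 2.81, Apoe 2.77, Grn 1.71, Ctsb 1.11 and Psap 0.92. Those called in opposite directions in both cell types gave Plac8 2.74, Cd81 2.70, Ifit3 1.82, Glrx 1.52 and Tcf7 -1.84. Interferon and MHC class I genes gave Oas1a 2.03, Oasl2 2.02, Zbp1 1.28, Gbp4 1.27 and H2-Q6 0.75. Cell division genes gave Top2a 2.07, Ccna2 1.90, Nusap1 1.76, Tk1 1.71, Uhrf1 1.50 and Stmn1 1.28. S100, annexin, adhesion and actin genes gave S100a6 2.15, Anxa2 1.98, S100a4 1.89, Cd44 1.60 and Plek 1.44. Signalling and death genes gave Tnfsf14 2.92, Dusp6 2.48, Rgs1 1.55, Bcl2a1d 1.17, Bid 1.09, Tnfrsf1b 1.03, Nfkbiz 0.99 and Bcl2a1b 0.75, and Xbp1, Atpif1 and Cox5b gave 0.90, 0.78 and 0.67. The negative values were St8sia6 -2.88, Cd47 -1.94, Tent5c -1.61, Itgb3 -1.53, Bmt2 -1.52, Chst10 -1.28, Selenop -1.18, Als2cl -1.14, Actn1 -1.12, Tubb2a -1.10 and Hist3h2a -1.08.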

How the results depend on the processing

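Of 2720 values of 120 named gene results under other settings, 2351 kept direction and side of the threshold, 289 lost the call, 44 gained one and 36 changed sign, all of the last without a call. TPM keep no depth, so what depth limits is unknown. Where a value below moved, the cause was not tested.

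Without a filter on low values 5 genes rose and 0 fell in T cells, 1 rose and 1 fell in cDC2s, and 0 were called in both in either sense. Without a variance trend 19 fell in T cells, 0 rose and 2 fell in cDC2s, and 0 were called in both. With 1 fit of all libraries 30 fell in T cells, 17 rose and 55 fell in cDC2s, and 5 moved together. After quantile scaling 143 fell in T cells, 118 differences were positive and 54 negative, 3 genes moved oppositely, and the medians were -0.068 (T cells), -0.011 (cDC2s) and -0.052 (difference). After median-of-ratios scaling 142 fell in T cells, 122 differences were positive and 60 negative, 5 genes moved together and 3 oppositely, and the medians were -0.077, -0.0091 and -0.067. After protein-coding scaling 29 differences were negative, 2 genes moved oppositely and the cDC2 median was -0.022. With T cell library 2 of each genotype only, 59 differences were positive and 6 negative. A limit of 2 TPM for the set (8872 genes) gave 375 higher in T cells, 16 higher in cDC2s, 317 positive differences and r = 0.093. A limit of 10 TPM (5708 genes) gave 11 negative differences and r = 0.129. A limit on the mean of all libraries (8142 genes) gave 413 higher in T cells, 344 positive differences and r = 0.0884.

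With the replicate number as a block, 588 genes rose and 129 fell in T cells, 0 rose and 1 fell in cDC2s, 0 were called in both in either sense, and 204 differences were positive and 16 negative. The labels do not say what a replicate number stands for, so the numbers were not taken as pairs. Same-numbered libraries correlated at 0.19 in T cells and at -0.0438, 0.0591 and 0.119 in cDC2s after removal of group means. With 2 T cell libraries per genotype, crossed numbers must give the same value with the opposite sign (-0.19). These values therefore do not decide whether a number is shared. In T cells the block leaves 1 residual degree of freedom, so those p-values lean on the spread shared across genes.

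Leaving out 1 library gave 109 to 674 genes higher and 11 to 91 lower in T cells, 0 to 10 higher and 0 to 27 lower in cDC2s, 94 to 262 positive and 7 to 21 negative differences, 0 to 2 called together and 0 to 8 oppositely. The medians ran from -0.050 to 0.20 in T cells, from -0.12 to -0.06 in cDC2s and from 0.042 to 0.29 for the difference, r from 0.0866 to 0.124 and rho from 0.0741 to 0.147.

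The changes of sign were these. Fabp5 gave 0.033 with a pseudocount of 0.1 and 0.0073 with T cell library 2 only. Cd47 in cDC2s gave 0.073, 0.078 and 0.064 after quantile, median-of-ratios and protein-coding scaling. In the same order Hspa8 gave -0.18, -0.22 and -0.083 and Cflar -0.19, -0.21 and -0.083, and with T cell library 2 only they gave -0.25 and -0.21. Median-of-ratios scaling gave Eef1a1 -0.041, Bax -0.020, Actb -0.015 and B2m -0.10. Leaving out 1 library, the uncalled differences ran from -0.61 to 0.23 for Cd4, from -0.14 to 0.085 for Fabp5, from -0.24 to 0.28 for Hspa8, from -0.15 to 0.14 for Nfkbia and from -0.24 to 0.28 for Cflar, and the Cd47 effect in cDC2s from -0.054 to 0.062.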
